A study of Mus musculus with 3 samples.

Results

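Cadherins and catenins, the proteins of cell to cell adhesion, were examined in sorted endothelial cells of the adult mouse kidney cortex. The 10 genes were chosen by name, as cadherins and catenins of cell junctions: *Cdh5*, *Cdh13*, *Cdh1*, *Cdh16*, *Cdh2*, *Cdh6* and *Cdh11* among the cadherins, and *Ctnnd1*, *Ctnna1* and *Jup* among the catenins. They are 10 of the 19938 genes with a probeset of their own on the array, and each was read at 1 such probeset. The samples were 3 preparations of GFP-positive cells from Tg(TIE2GFP)287Sato mice, called replicates 1, 2 and 3, all adult, on a mixed background that was mainly CD-1, untreated as far as the labels say, and of unknown sex. In this transgene the *Tek* (Tie2) promoter drives GFP, so the sort follows the use of that promoter and not a junction protein. Each preparation came from 1 kidney whose medulla had been cut away and whose glomeruli had been held back on a 40 µm mesh, and RNA was amplified in 1 round. The 3 samples form 1 group with no control, so no comparison between groups was possible, and each gene was set against a fixed signal instead. The labels do not say whether the kidneys came from different mice, so a p-value here measures only the spread between these 3 samples.

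A classical cadherin spans the membrane, binds the same kind of cadherin on the neighbouring cell in the presence of calcium, and carries a cytoplasmic tail that holds catenins. The p120-catenin of *Ctnnd1* binds close to the membrane and keeps the cadherin at the surface, β-catenin or plakoglobin binds the end of the tail, and α-catenin links this complex to actin. In endothelium the cadherin of these junctions is VE-cadherin, and its hold helps to set how tightly a vessel wall is sealed, while the epithelium of the nephron uses E-cadherin, N-cadherin and a cadherin found almost only in kidney tubules.

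The limit used here was a signal of 100, which is 6.64 on the log2 scale, the raw level of the low-signal filter that the study describes. A gene was called above or below it when limma, a linear model fitted to all 35557 probesets, gave a one-sided Benjamini-Hochberg adjusted p under 0.05, and "adjusted p" means this value throughout. By this test 6 of the 10 genes were above the limit, against 22.9% of all genes, and 4 were below it, against 65.0% of all genes. None was left between. A signal of 100 or more in every sample, with no test, was met by the same number, 6 of 10, against 28.0% of all genes. The 6 genes above were *Cdh5*, *Cdh1*, *Cdh16*, *Ctnnd1*, *Ctnna1* and *Jup*, with mean signals between 1.43 and 15.7 times the limit. The 4 below were *Cdh13*, *Cdh2*, *Cdh6* and *Cdh11*, at 0.385 to 0.531 times the limit. A probeset below this limit may still hold signal, and probes differ in brightness, so these calls set no gene's level against another's.

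**Figure D1:**
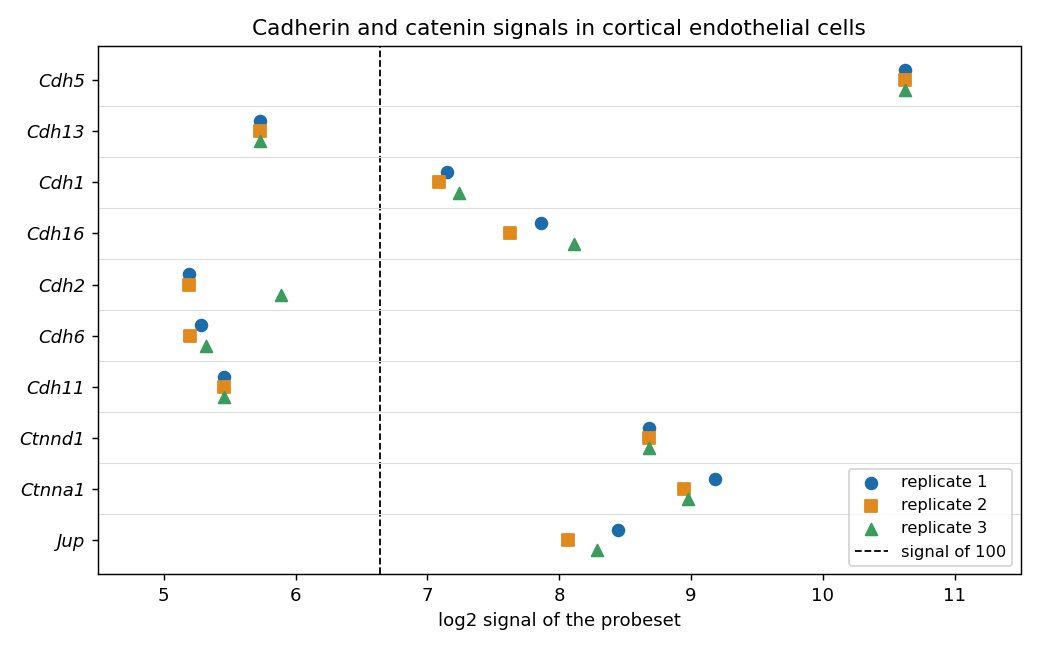
Log2 signal (horizontal axis) of the 10 cadherin and catenin probesets, 1 row per gene, with 1 marker for each of the 3 samples and a dashed line at a signal of 100. All 3 markers of *Cdh5*, *Cdh1*, *Cdh16*, *Ctnnd1*, *Ctnna1* and *Jup* lie right of the line, all 3 of *Cdh13*, *Cdh2*, *Cdh6* and *Cdh11* lie left of it, and replicate 3 of *Cdh2* stands apart at 5.89.

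The 3 samples held endothelial transcripts and also transcripts of tubules. All 12 endothelial markers measured were above the limit, among them *Tek*, with log2 signals of 10.55, 10.44 and 10.24 in replicates 1, 2 and 3, though 6 of the 12 were called without replicate 1. Of 33 tubule and collecting duct markers, 13 were above, 7 below and 13 neither. The summed signal of the 11 proximal tubule markers measured was 8568, 6427 and 8835 in replicates 1, 2 and 3, that of the 6 markers of the thick ascending limb 4157, 2425 and 3676, and that of the 10 collecting duct markers 1246, 806 and 2143. Smooth muscle and pericyte markers summed to 1759, 1766 and 3629 over 8 genes, of which 7 were highest in replicate 3 alone. All 8 leukocyte markers and all 4 lymphatic markers were below the limit, as were 6 of 8 fibroblast markers and 4 of 6 podocyte and parietal cell markers. In a bulk sample such as these, fewer cells of a type and less RNA per cell cannot be told apart. The median log2 signal over all probesets was 5.70, 5.70 and 5.66, and the samples correlated pairwise with a Pearson's r of 0.941 to 0.950 over the probesets, which are not independent of each other.

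*Cdh5* encodes VE-cadherin, the cadherin of endothelial adherens junctions. Its probeset (10574438) had signals of 1571, 1578 and 1571 in replicates 1, 2 and 3, a log2 mean of 10.62. Replicates 1 and 3 held the same value to all 5 decimals, and the highest sample exceeded the lowest by 0.01 on the log2 scale. The mean was 15.7 times the limit (adjusted p = 1.68e-06). A second fit lends the spread of other probesets to every probeset with 3 equal values. All others keep their own spread there, so only the shared part of the limma fit and the adjustment change for them. *Cdh5* was among these others (adjusted p = 5.38e-05), so this value does not make up for its small spread. *Cdh5* stayed above when any 1 sample was left out, with adjusted p between 0.000546 and 0.00186, and with the limit at 200. Without replicate 2 the remaining pair is equal, so the call could not be lost there.

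*Cdh13* encodes T-cadherin, an atypical cadherin of vessels and smooth muscle that is held in the membrane by a lipid anchor, has no cytoplasmic tail for catenins and binds adiponectin. Its probeset (10575844) read 53.1 in all 3 samples, a log2 signal of 5.73, so these data hold no spread for it. The mean was 0.531 times the limit and was called below. The adjusted p was 2.70e-09 as fitted with no spread of its own, and 0.000928 with the spread of other probesets. *Cdh13* was the only gene of the 4 below that lay over a limit of 50, by 0.09 on the log2 scale.

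*Cdh1* encodes E-cadherin, the cadherin of epithelial junctions, found in the kidney mainly in the distal nephron and the collecting duct. Its probeset (10575052) had log2 signals of 7.15, 7.09 and 7.24, which are signals of 142, 136 and 151. The 3 values lay within 1.11-fold of each other, lowest in replicate 2 and highest in replicate 3. The log2 mean of 7.16 ± 0.08 (SD, n = 3) was 1.43 times the limit, with a limma adjusted p of 0.0116. The call was lost without replicate 1 (adjusted p = 0.137), without replicate 2 (0.0736) and without replicate 3 (0.104), and with the limit at 200 the gene was below it.

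*Cdh16* encodes Ksp-cadherin, a cadherin of kidney tubule epithelium whose short tail lacks the catenin-binding region of classical cadherins. Log2 signals at its probeset (10581132) were 7.86, 7.63 and 8.11 in replicates 1, 2 and 3, which are signals of 233, 198 and 275. Replicate 3 was 1.39 times replicate 2, the widest range among the 6 genes above. The log2 mean was 7.87 ± 0.24 (SD, n = 3), 2.33 times the limit, with a limma adjusted p of 0.0194. Leaving out replicate 1, 2 or 3 gave adjusted p of 0.181, 0.082 and 0.152, so this call needed all 3 samples.

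*Cdh1* and *Cdh16*, both genes of tubule epithelium, were thus above the limit in cells sorted for an endothelial transgene. Both were lowest in replicate 2, the sample in which the proximal tubule, thick ascending limb and collecting duct sums were lowest too, and both were highest in replicate 3. The proximal tubule markers had a median difference from their own means of 0.10, -0.31 and 0.19 in replicates 1, 2 and 3, and 7 of these 11 markers were above the limit, *Lrp2* (megalin), *Cubn*, *Slc34a1* and *Miox* among them. In the thick ascending limb 3 of 6 markers were above, *Umod* (uromodulin), *Slc12a1* and *Egf*. Of 6 distal and connecting tubule markers, *Slc12a3*, *Pvalb* and *Calb1* were above. Collecting duct markers had none of 10 above and 5 below, and at an unadjusted limma p under 0.05 there were 2 above, *Aqp2* and *Atp6v1g3*. *Atp6v1g3* alone had signals of 502, 197 and 1123 within the collecting duct sums of 1246, 806 and 2143. Proximal markers above numbered 11 in the second fit, in which the markers gained kept their own spread, and 4 without replicate 3. Those of the thick ascending limb and of the distal tubule numbered 0 each without replicate 1 or without replicate 3. The part of tubule RNA in the signals of *Cdh1* and *Cdh16* was not tested.

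*Cdh2* encodes N-cadherin, used by endothelial cells mostly outside the junction and in contacts with pericytes, and by proximal tubule cells of the nephron. Its probeset (10457644) read 36.4 in replicate 1, 36.4 in replicate 2 and 59.3 in replicate 3, with equal values in replicates 1 and 2. On the log2 scale these are 5.19, 5.19 and 5.89. Replicate 3 was thus 1.63 times the other pair, the widest range of the 10 genes, and still under 100. The log2 mean of 5.42 ± 0.41 (SD, n = 3) was 0.428 times the limit and called below, with a limma adjusted p of 0.0184. The call was lost without replicate 1 and without replicate 2 (adjusted p = 0.105 each). Without replicate 3 the remaining pair is equal, so the call could not be lost there. At a limit of 50 the adjusted p was 0.433. Smooth muscle and pericyte markers moved the same way, with a median difference from their own means of -0.15, -0.30 and 0.55 in replicates 1, 2 and 3. *Rgs5* read 9.65, 9.70 and 10.64, *Acta2* 8.43, 7.97 and 9.50, and *Myh11* 7.79, 8.14 and 9.44 on the log2 scale. *Pdgfrb* and *Tagln* were highest in replicate 3 too, *Des* (5.75, 5.75 and 5.91) and *Cspg4* (5.86, 5.86 and 5.90) rose less, and *Notch3* read 6.90 in each sample. The median difference of the 11 proximal tubule markers was also highest in replicate 3, at 0.10, -0.31 and 0.19. Of these markers 4 were highest alone in replicate 3 and 4 in replicate 1. Whether mural cell or proximal tubule RNA had a part in the *Cdh2* value of replicate 3 was not tested.

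*Cdh6* encodes K-cadherin, a classical cadherin of the forming nephron that is also found in proximal tubule cells. At its probeset (10427862) the signals were 38.9, 36.7 and 39.9, or 5.28, 5.20 and 5.32 on the log2 scale. They lay within 1.09-fold of each other, lowest in replicate 2. The log2 mean of 5.27 ± 0.06 (SD, n = 3) was 0.385 times the limit, with a limma adjusted p of 0.000277. It stayed below with the limit at 50 and without any 1 sample, with adjusted p of at most 0.0158. The tubular cadherins among the 10 genes were thus split into 2 above, *Cdh1* and *Cdh16*, and 2 below, *Cdh2* and *Cdh6*. This split depends on the limit, since at 200 *Cdh1* was below and *Cdh16* was not called (limma adjusted p = 0.777). In the same samples 7 of 11 proximal tubule markers were above. Whether tubule RNA had a part in the split was not tested.

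*Cdh11* encodes OB-cadherin, a cadherin of mesenchymal cells such as fibroblasts and bone-forming cells. The probeset of its own (10581013) read 44.1 in all 3 samples, a log2 signal of 5.46, so it too carries no spread. It was 0.441 times the limit and below it, with an adjusted p of 9.68e-10 as fitted and 0.000569 with the spread of other probesets. A further 3 probesets that the array annotation gave to *Cdh11* together with other genes were not used. Fibroblast markers were mostly below as well, *Pdgfra* at 4.72 in all 3 samples, *Dcn* at 4.74, 5.32 and 4.74 and *Lum* at 3.88, 3.88 and 4.17 on the log2 scale. The 2 fibroblast markers above were *Pi16* and *Col1a1*, and the call of *Col1a1* was lost with the spread of other probesets (adjusted p = 0.232).

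**Figure D2:**
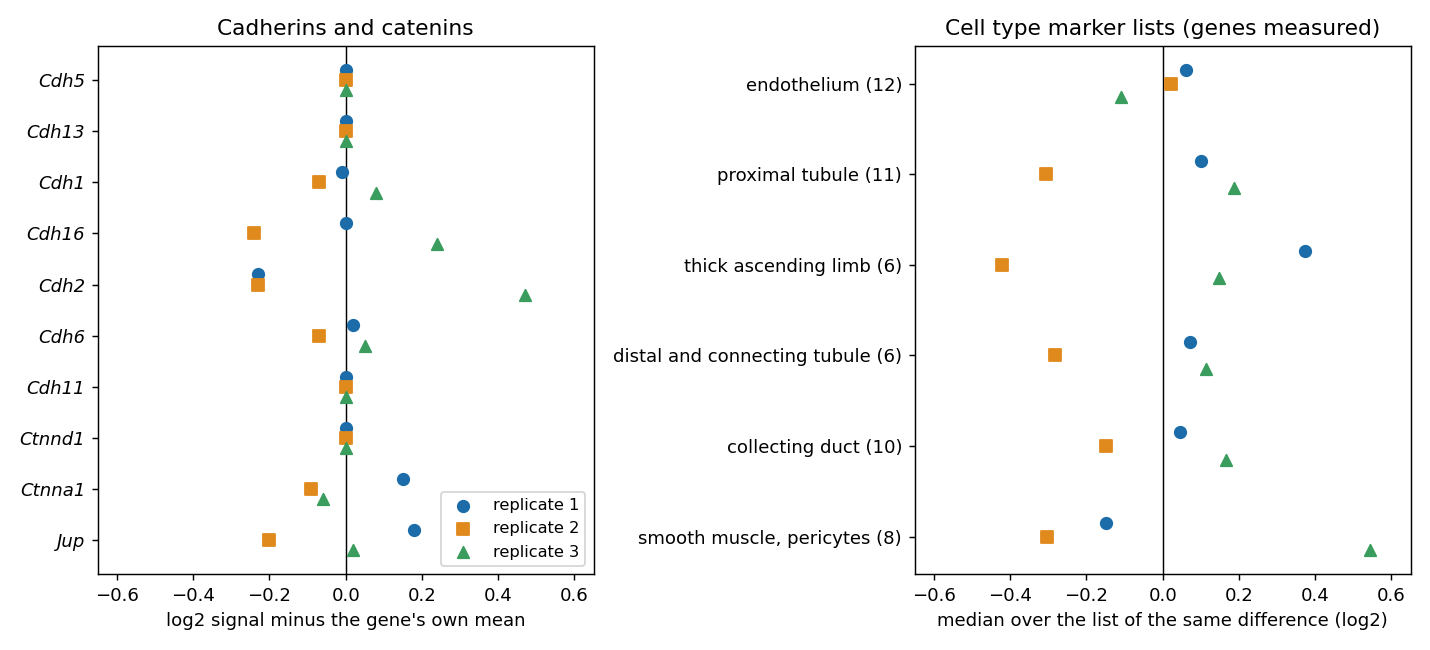
Left, the log2 signal of each of the 10 genes minus the gene's own mean over the 3 samples (horizontal axis), with 1 marker per sample. Right, the median of the same difference over each list of cell type markers, with the number of genes measured in brackets. *Cdh1*, *Cdh16*, *Cdh6*, *Ctnna1* and *Jup* have replicate 2 at the left end, as do the 4 tubule lists and the smooth muscle and pericyte list. *Cdh2* has replicate 3 at the right end, as do the smooth muscle and pericyte list and the tubule lists other than the thick ascending limb.

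Among the other genes of the Cdh and Cdhr families, 1 of 21 was above the limit, 19 were below and 1 was neither. Over all genes 22.9% were above and 65.0% below, and each list count that follows stands beside these shares. P-cadherin (*Cdh3*) had log2 signals of 5.12, 5.12 and 5.14, R-cadherin (*Cdh4*) 5.84 in all 3 samples, M-cadherin (*Cdh15*) 5.30 and the intestinal cadherin *Cdh17* 4.13. All were below, including *Cdh3*, the gene next to *Cdh1* on chromosome 8 in the GRCm38.p6 annotation, and *Cdh8*, next to *Cdh11*. The 1 above was *Cdh24*, at 6.73 in each sample, and its call was lost with the spread of other probesets (adjusted p = 0.919). *Cdhr5*, a protocadherin-like protein of the brush border, read 7.55, 7.06 and 7.13 and missed the threshold (adjusted p = 0.0934). In the second fit it kept its own spread and had an adjusted p of 0.0423. *Cdhr5* was lowest in replicate 2, as *Cdh1* and *Cdh16* were, but highest in replicate 1, while they were highest in replicate 3. *Cdhr2* of the same list read 5.03 in all 3 samples and was below.

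*Ctnnd1* encodes p120-catenin, which binds the juxtamembrane part of VE-cadherin and other classical cadherins and slows their uptake into the cell. Its probeset (10484402) read 410 in all 3 samples, a log2 signal of 8.68. The mean was 4.10 times the limit, with an adjusted p of 1.68e-06 as fitted and 0.00162 with the spread of other probesets. It was above at limits of 50 and of 200. With 3 equal values, leaving out a sample could not change its call.

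*Ctnna1* encodes αE-catenin, the link from the cadherin complex to actin. Log2 signals at its probeset (10454786) were 9.18, 8.95 and 8.98, which are signals of 582, 495 and 505. Replicate 1 stood 1.18-fold over replicate 2, with replicate 3 close to replicate 2. The log2 mean of 9.04 ± 0.13 (SD, n = 3) was 5.26 times the limit, with a limma adjusted p of 0.00154. The call was kept without replicate 1 (adjusted p = 0.00552) and without replicate 2 (0.0384) and was lost without replicate 3 (0.0786).

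*Jup* encodes plakoglobin (γ-catenin), the relative of β-catenin that serves both adherens junctions and desmosomes. At its probeset (10391103) the signals were 349, 268 and 313 in replicates 1, 2 and 3, or 8.45, 8.07 and 8.29 on the log2 scale. The samples differed by at most 1.30-fold, lowest in replicate 2 and highest in replicate 1. The log2 mean was 8.27 ± 0.19 (SD, n = 3), 3.08 times the limit, with a limma adjusted p of 0.00715. The call was lost without replicate 1 (adjusted p = 0.0678) and without replicate 3 (0.162), and was kept without replicate 2 (0.0413). The sample lowest for *Jup* was the one in which 24 of the 33 tubule and collecting duct markers were lowest alone, and the part of tubule RNA in its signal was not tested.

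The partner that *Jup* can replace, β-catenin (*Ctnnb1*), was above the limit at 9.05 in all 3 samples, so a gene for each catenin of the adherens junction was above. Of 12 other catenins and armadillo proteins 2 were above, 9 below and 1 neither, near the 22.9% above and 65.0% below over all genes. The second above was *Pkp4* (p0071), a relative of p120-catenin, at 7.82, 7.82 and 8.20 (adjusted p = 0.0149), and without replicate 1 or without replicate 2 only 1 of the 12 was above. The α-catenins of nerve and of heart and testis, *Ctnna2* at 4.54, 4.86 and 4.54 and *Ctnna3* at 4.59 in each sample, were below, as was the α-catenin-like *Ctnnal1* at 6.15, 6.15 and 6.17. Below too were δ-catenin (*Ctnnd2*) at 5.41 and *Arvcf*, other relatives of p120-catenin, at 6.21, 6.27 and 6.27. *Ctnnbip1*, an inhibitor of β-catenin, was neither, at 6.50, 6.55 and 6.12. *Pkp3*, at 6.39 in each sample, lost its call below with the spread of other probesets (adjusted p = 0.0722).

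Desmosomes are the other junction that uses plakoglobin, and none of their 11 other genes measured was above the limit, at an unadjusted p under 0.05 included. *Jup* was above while desmoplakin (*Dsp*), the protein that ties plakoglobin to keratin filaments, was below at 5.56, 5.56 and 6.13 (limma adjusted p = 0.0227). The desmosomal cadherins *Dsg2* at 4.33, 4.25 and 4.25 and *Dsc2* at 4.36 in each sample were below as well. *Perp*, a desmosomal membrane protein of epithelia, was the 1 gene that was neither, with signals of 104, 85.1 and 128, and it was lowest in replicate 2 and highest in replicate 3, as *Cdh1* and *Cdh16* were. *Evpl*, with its own spread, lost its call below in the second fit (adjusted p = 0.522).

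**Figure D3:**
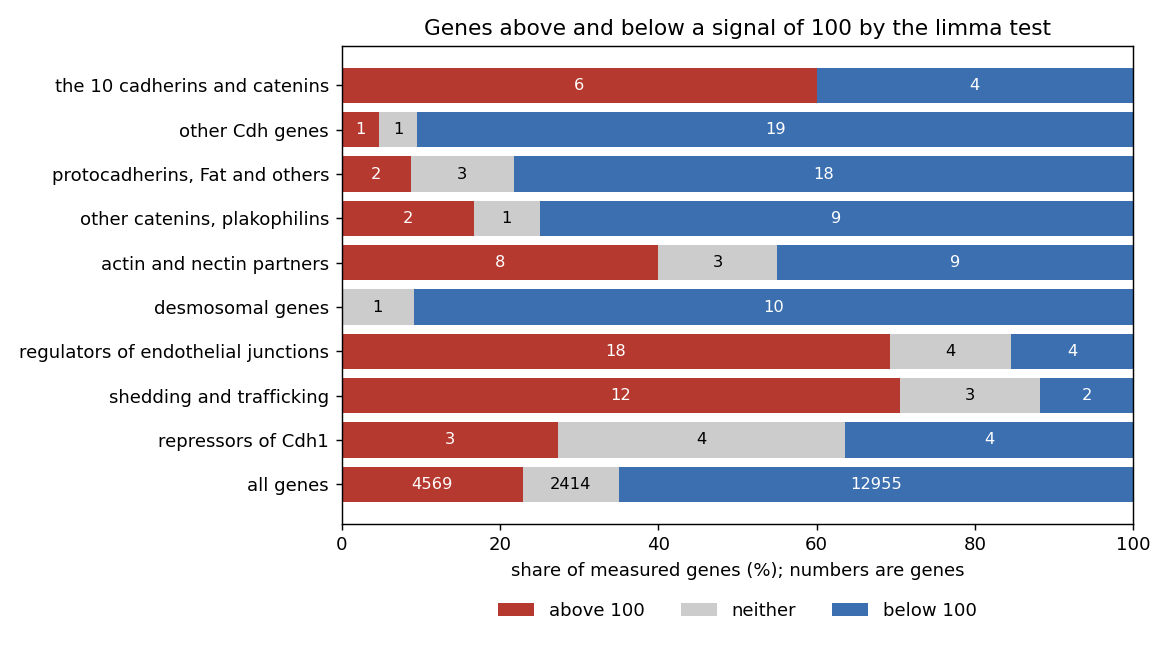
Share of measured genes (horizontal axis, %) above a signal of 100, neither, or below it by the limma test, for the 10 cadherins and catenins, 8 lists of related genes and all genes, with the number of genes written in each bar. The 10 genes split 6 above and 4 below, the other Cdh genes 1 above and 19 below, and all genes 4569 above and 12955 below.

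Of the genes that act on the VE-cadherin and catenin complex 18 of 26 were above the limit, 4 below and 4 neither. The phosphatase VE-PTP (*Ptprb*), which binds VE-cadherin, read 10.86 in all 3 samples, *Ptprj* (DEP-1) 7.72 and the Rap1 effector *Rasip1* 8.08, and *Heg1*, the receptor that brings the cerebral cavernous malformation proteins to the junction, read 10.92, 10.86 and 11.03. The 4 below were *Src*, *Radil*, *Tiam1* and *Vav2*, a kinase, a Rap effector and a pair of activators of Rac. *Krit1*, the partner of *Heg1*, was neither, at 7.31, 7.27 and 5.65, as were *Ccm2*, *Rapgef3* and *Ptpn1*. In the second fit *Ccm2*, with its own spread, was below (adjusted p = 0.0343). *Rapgef1*, with 3 equal values, lost its call above in that fit (adjusted p = 0.081).

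Of 20 actin and nectin partners measured, 8 were above, 9 below and 3, *Vasp*, *Magi1* and *Ssx2ip*, neither. Vinculin (*Vcl*), which αE-catenin recruits under tension, read 7.67, 7.69 and 7.69 and was above with afadin (*Afdn*) at 8.93, 8.93 and 8.50. Nectin-2 (*Nectin2*) at 6.17 and *Plekha7*, which binds p120-catenin at epithelial junctions, at 5.32 were below. *Epb41l5*, at 7.07 in each sample, lost its call above with the spread of other probesets (adjusted p = 0.0864). Of 17 genes for the shedding, ubiquitination and trafficking of cadherins 12 were above (7 without replicate 3), 2, *Exoc4* and *Pip5k1c*, below and 3, *Ncstn*, *Aph1a* and *Mdm2*, neither. *Adam10*, the protease that sheds VE-cadherin and E-cadherin, read 8.90 in all 3 samples, *Numb*, an endocytic adaptor, 7.41, 7.65 and 7.27, and *Rab11a*, of the recycling endosome, 9.69, 9.90 and 9.10. *Cbll1* (Hakai), the ubiquitin ligase of E-cadherin, lay at 6.68 in each sample. Its call above was lost with the spread of other probesets, as was the call of *Exoc4* below (adjusted p = 0.248). *Ncstn*, which kept its own spread in that second fit, was above in it (adjusted p = 0.0429).

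Of 11 transcription factors known to repress *Cdh1*, 3 were above, near the 22.9% of all genes, 4 below and 4 neither. *Zeb1* read 8.41 and *Zeb2* 8.20 in all 3 samples, and *Tcf4* (E2-2) 9.49, 9.44 and 9.30. *Snai1* at 6.49 in each sample was below, a call lost with the spread of other probesets (adjusted p = 0.192), and *Twist2*, *Klf8* and *Gsc* were below too. *Snai2* at 7.75, 7.91 and 7.05, *Twist1* at 5.70, 5.70 and 7.05, *Tcf3* and *Foxc2* were neither. In the second fit *Snai2* (adjusted p = 0.0442) and *Foxc2* (0.0251) were above, each with its own spread.

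Of 23 protocadherin, Fat, Dachsous, Celsr and calsyntenin genes, which have cadherin repeats and no classical catenin-binding tail, 2 were above, 18 below and 3 neither. Both above, *Fat4* at 6.75 and *Clstn1* at 7.08, had 3 equal values and lost the call with the spread of other probesets (adjusted p = 0.784 for *Fat4* and 0.0778 for *Clstn1*). *Pcdh12*, known as VE-cadherin-2, and *Fat1* were below at 6.22 and 5.90, and *Pcdh17* at 8.93, 8.73 and 7.48 (adjusted p = 0.0973), *Pcdh1* and *Pcdh18* were neither. In the second fit *Pcdh17*, with its own spread, was above (adjusted p = 0.0318), the 1 gene of this list that then was.

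The median range of the 3 log2 values was 0.14 over the 10 cadherins and catenins, against 0.00 over all genes. Over the 6 genes above the limit it was 0.19, against 0.18 over the 6127 genes whose mean reached 100. With 1 sample left out it was between 0.04 and 0.08 over the 10 genes. A range of 2 values cannot be wider than that of the 3, so no rise was possible there. *Ctnnd1*, *Cdh11* and *Cdh13* had 3 equal values, and *Cdh5* and *Cdh2* had a pair of equal values and 1 other. Over all genes 51.2% had 3 equal values, and 27.5% of those with a mean of 100 or more. The remaining 5, *Cdh1*, *Cdh16*, *Cdh6*, *Ctnna1* and *Jup*, had 3 different values, and in each of them replicate 2 was lowest alone. Over the genes with a mean of 100 or more, replicates 1, 2 and 3 were lowest alone in 12.6%, 19.1% and 24.9%. Over all genes replicate 2 was lowest alone in 10.3%. These shares include genes with tied values, so they are not set against the 5 genes picked for 3 different values. *Cdh6* is also not among the genes with a mean of 100 or more. Replicate 2 was lowest alone in 24 of the 33 tubule and collecting duct markers. After quantile normalization of the 3 columns it was lowest alone in 9 of the 10 genes and 27 of the 33 markers. Its share among genes whose mean reached 100 became 27.6%. *Cdh1*, *Cdh16*, *Cdh6*, *Ctnna1* and *Jup* kept replicate 2 lowest there. The genes added, *Cdh2*, *Cdh11*, *Cdh13* and *Ctnnd1*, had replicate 2 tied for lowest as deposited, so the higher count came from split ties. With columns at the same median, replicate 2 was lowest alone in 5 of the 10 genes, 25 of the 33 markers and 25.6% of those brighter genes. As deposited, replicate 3 was highest alone in *Cdh1*, *Cdh16*, *Cdh2* and *Cdh6*. That count of 4 of 10 became 8 of 10 after quantile normalization, which also moved the same count over genes with a mean of 100 or more to 61.2%, against 20.3% as deposited.

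**Figure D4:**
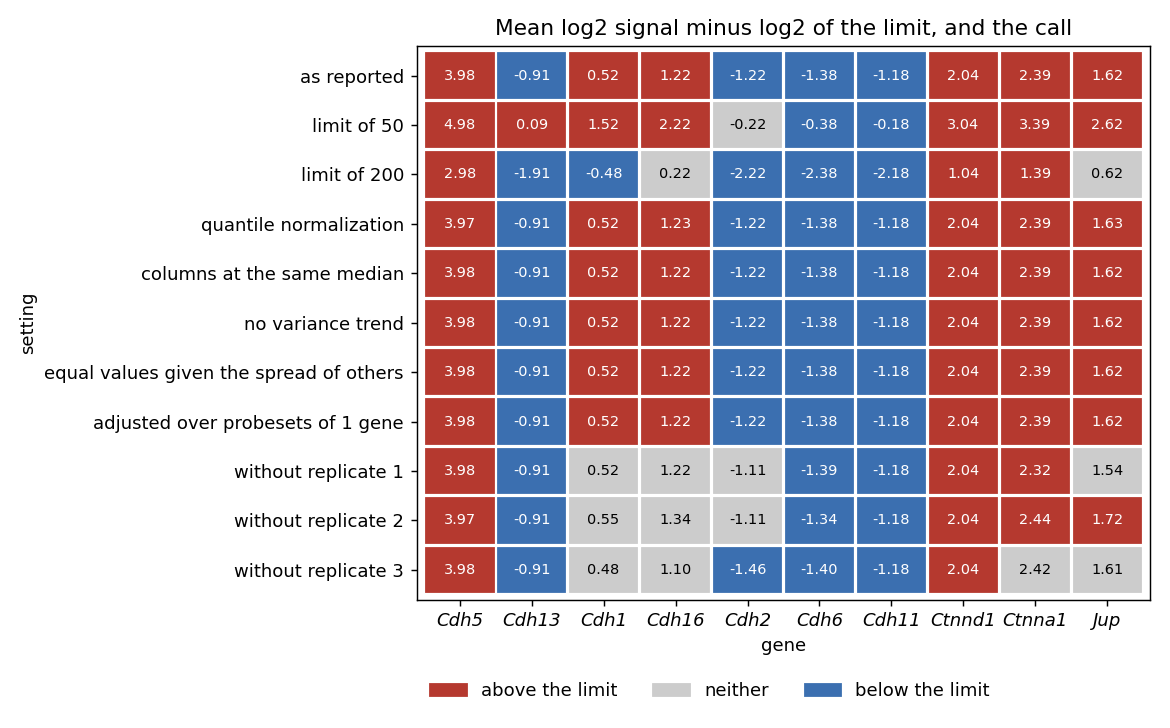
Mean log2 signal minus the log2 of the limit for the 10 genes (columns) under 11 settings (rows), with the value written in each cell and the call by limma as its colour, red for above, blue for below and grey for neither. *Cdh5* and *Cdh6* are called in 1 direction in every row, *Cdh1* and *Cdh16* turn grey whenever 1 of the 3 samples is left out, and *Ctnnd1*, *Cdh11* and *Cdh13*, with 3 equal values, could not change in those rows.

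Leaving out 1 sample could change the call of only the 7 genes whose 3 values were not all equal. Of these, *Cdh5* and *Cdh6* kept their call each time, and *Cdh1*, *Cdh16*, *Cdh2*, *Jup* and *Ctnna1* lost it at least once. The means moved little, for *Cdh1* to between 0.48 and 0.55 over the limit on the log2 scale, against 0.52 with all 3 samples, and with 2 samples the fit has less information on the spread. Without replicate 1, 3 genes were above, without replicate 2 there were 4, and without replicate 3 only *Cdh5* and *Ctnnd1*.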

How the data were processed

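The authors deposited 1 table of log2 signals, with 1 column for each of the 3 samples, measured on Affymetrix Mouse Gene 1.0 ST arrays after amplification with the NuGEN WT-Ovation Pico kit. Its values had been summarised per probeset and normalized between arrays. For its own comparisons the study used RMA and GeneSpring, and the submitters' processing notes name Affymetrix Expression Console. The version of Expression Console, which arrays were normalized together and the genome build stand in none of the sources used here. RMA and normalization between arrays can compress differences between samples, and 40.5% of the 35557 probesets held 3 values equal to all 5 decimals. Precision is limited by the 3 arrays.

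Gene names came from the platform annotation, in which 21789 probesets had 1 gene, 1621 several and 12147 none, and 21766 of the first kind had a symbol in the reference gene table (GRCm38.p6, used only for names and neighbours). A gene was read at its probeset with the highest mean, and probesets of several genes were not named. Log2 values minus the log2 of 100 were fitted with an intercept-only model in limma 3.58.1 (R 4.3.3) with a mean-variance trend, and means above and below the limit were tested one-sided with Benjamini-Hochberg adjustment over all probesets. Residual degrees of freedom were 2 and prior degrees of freedom 0.297. The fit was tested on simulated data whose spreads were drawn only from probesets that had a spread. That test was not set up to cover probesets with 3 equal values. Tables and figures were made with Python 3.11.15, pandas 2.3.3, numpy 2.4.6 and matplotlib 3.10.9.

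The rule for named genes was all 10 genes, the first 4 measured genes of each other list and all genes behind a count of 5 or fewer. It was kept for the 10 genes and mostly for the lists of junction genes, while cell type markers are given mainly as counts and sums, with only some of the genes of the rule named. List genes with no probeset of their own, such as *Dsc1*, were not analysed here. The 10 genes and the lists were chosen with earlier results of these data known. Alternatives were a limit of 50 or 200, quantile normalization, columns at the same median, no variance trend, the median spread of other probesets in the same of 20 bins of mean signal for those with 3 equal values, adjustment over probesets of 1 gene, only probesets with a mean of at least 50, the mean over a gene's probesets, and leaving out each sample.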

Additional observations from a re-analysis of the deposited data

How the results depend on the processing

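Of 117 recomputed calls of the 10 genes 101 kept direction and side of the threshold, 14 kept direction only and 2 changed direction. With a limit of 200 in place of 100, 3 genes were above, and *Cdh1* lay under it, at -0.48 on the log2 scale, while *Cdh16* (limma adjusted p = 0.777) and *Jup* (0.0875) were no longer called. With a limit of 50, 2 genes were below, and *Cdh13* lay over it, at 0.09. These changes follow from the limit itself, since the signals did not change. Shares of all genes above and below are given only for a limit of 100 and all 3 samples. Counts at other settings are not set against them. Leaving out 1 sample left 2 to 4 genes above the limit, and the lost calls are given with the genes. The counts of 6 above and 4 below did not change with quantile normalization, columns at the same median, no variance trend, the spread of other probesets for equal values, or adjustment over probesets of 1 gene. For the lists of related genes, a limit of 50 gave 3 of the other Cdh genes above in place of 1, 9 other catenins in place of 2, 16 actin and nectin partners in place of 8, 3 desmosomal genes in place of 0, 9 protocadherins and relatives in place of 2 and 7 repressors in place of 3. A limit of 200 gave 0 other Cdh genes, 1 other catenin, 3 actin and nectin partners, 0 protocadherins and relatives, and 6 genes of shedding and trafficking in place of 12. Genes below at a limit of 200 were 16 actin and nectin partners in place of 9, 9 regulators of endothelial junctions in place of 4 and 7 genes of shedding and trafficking in place of 2. Genes below at a limit of 50 were 3 other catenins in place of 9, 3 actin and nectin partners in place of 9, 2 regulators in place of 4, 0 genes of shedding and trafficking in place of 2 and 2 repressors in place of 4. With the spread of other probesets for equal values, 5 repressors were above in place of 3, 1 protocadherin or relative, *Pcdh17*, in place of *Fat4* and *Clstn1*, and 11 proximal tubule markers in place of 7, and 1 gene of shedding and trafficking was below in place of 2. The table holds no detection calls, so a gene below the limit is not shown to be at background. No paired analysis was possible because the samples form only 1 group.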

Other observations

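The order of genes along chromosome 8 in the GRCm38.p6 annotation puts *Cdh5* next to *Cdh11*, and *Cdh1* next to *Cdh3*. In both pairs 1 gene was above a signal of 100 and its neighbour below. *Cdh5* read 1571, 1578 and 1571 and *Cdh11* 44.1 in all 3 samples. *Cdh1* read 142, 136 and 151, and the log2 signal of *Cdh3* was 5.12, 5.12 and 5.14. On chromosome 15 both neighbours, *Cdh6* and *Cdh9*, were below, with *Cdh9* at 3.58 on the log2 scale in each sample. These are values of different probesets, and no level was set against another.

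Several junction genes outside the 10 had 1 sample apart from a close pair. *Krit1* (7.31, 7.27 and 5.65), *Pcdh17* (8.93, 8.73 and 7.48) and the junction regulator *Arhgap29* (9.35, 9.32 and 8.34) were low in replicate 3. *Twist1* (5.70, 5.70 and 7.05) was high in replicate 3, and the endothelial receptor *Kdr* (9.72, 9.70 and 8.79) was low in it. These genes were picked after their values had been seen and were not tested between samples.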
